A study of Mus musculus with 34 samples.

Results

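The genes described here are 29 mouse genes of cholesterol metabolism, taken by name from the 54354 genes of the deposited table. They comprise 8 genes of the mevalonate pathway, 3 of squalene and lanosterol formation and 8 that convert lanosterol to cholesterol. Together these are 19 synthesis enzymes, among them Ggps1, whose enzyme makes geranylgeranyl diphosphate, off the route to cholesterol. The other members are 4 regulators of synthesis, 4 genes of uptake, transport and esterification, and 2 efflux transporters. Polyadenylated RNA was sequenced from colon tumour organoids, cultures labelled as epithelial and all given the genotype AKP. Degs1 had been knocked out by CRISPR with a ribonucleoprotein in clone1 and clone2, each with 9 libraries and each a single clone, and 3 Scrambled libraries were their control. A hairpin against Yap1 had been introduced in 3 libraries labelled shYAP, with 10 shControl libraries as their control. Both sets were made to follow expression after loss of Degs1 or Yap1. Degs1 encodes the desaturase of the last step in ceramide synthesis, and Yap1 a transcriptional co-activator of the Hippo pathway.

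Cells build cholesterol from acetyl-CoA by way of mevalonate, farnesyl diphosphate, squalene and lanosterol. Most enzymes of this route are transcriptional targets of SREBP2, the product of Srebf2. SCAP escorts SREBP2 to the Golgi for cleavage when membrane sterol is low, and the INSIG proteins hold SCAP in the endoplasmic reticulum when it is high. Excess cholesterol is esterified by SOAT1 or exported by ABCA1 and ABCG1, whose genes are activated by the oxysterol receptors LXR.

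Library totals ran from 883253 counts in clone1 replicate 2 to 6597099, and shControl replicate 3 was the next shallowest with 1747533. Nothing in the labels tells separate cultures from repeat libraries, so n counts libraries, and the p-values measure their spread, which may be technical. Degs1 averaged 2.41 ± 1.32 CPM in clone1, 1.71 ± 0.89 CPM in clone2 and 7.72 ± 2.62 CPM in Scrambled (SD, n = 9, 9 and 3). CPM are counts scaled to the TMM-normalised library total. Yap1 was not lower in the libraries labelled shYAP, with 19.04 ± 1.12 CPM against 16.5 ± 4.13 CPM in shControl (SD, n = 3 and 10). Its log2 fold change was 0.20 (95% interval -0.27 to 0.66, edgeR quasi-likelihood test, adjusted p = 0.619). By the same test Degs1 was higher in the libraries labelled shYAP than in shControl (log2 fold change 1.47, interval 0.87 to 2.06, adjusted p = 0.00205). All 10 epithelial markers, such as Epcam and Krt19, passed the filter on low counts, and none of the 8 fibroblast, 8 immune or 5 endothelial markers did. The summed level of each of those 3 lists was at most 3.11 CPM in any library.

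RefSeq promoter windows of 300 bases, from 250 before to 50 after the start, were held for 23 members. The core of the sterol regulatory element, searched as CACNCCAC on both strands, was found in 3 of them, Acat2, Hmgcs1 and Insig1, and in 7.12% of 27025 genes with a window. The CCAAT box, searched as CCAAT on both strands, was found in 20 of the 23 members and in 15 of 16 enzymes, against 41.1% of all genes. The GC box, searched as GGGCGG on both strands, was found in 21 of 23 members, against 38.2% of all genes. In the members' windows no match of these motifs shared a base with a match of another. The windows of the 3 members with a sterol element core are printed first. They are followed by the windows of Cyp51, which had no such core and the largest difference among the enzymes between the 2 experiments, and of Srebf2, which ran against the enzymes in the libraries labelled shYAP. Each runs 5′ to 3′ along the gene (build GRCm38.p6), and capitals mark matches to the sterol element core and the CCAAT box on either strand. A match describes letters only and is not a binding site.
Acat2: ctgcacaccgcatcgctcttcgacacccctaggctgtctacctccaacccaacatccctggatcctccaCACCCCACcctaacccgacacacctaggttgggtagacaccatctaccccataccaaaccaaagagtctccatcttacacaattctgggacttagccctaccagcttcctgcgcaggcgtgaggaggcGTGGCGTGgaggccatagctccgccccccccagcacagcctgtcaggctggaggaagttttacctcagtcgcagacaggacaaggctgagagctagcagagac
Hmgcs1: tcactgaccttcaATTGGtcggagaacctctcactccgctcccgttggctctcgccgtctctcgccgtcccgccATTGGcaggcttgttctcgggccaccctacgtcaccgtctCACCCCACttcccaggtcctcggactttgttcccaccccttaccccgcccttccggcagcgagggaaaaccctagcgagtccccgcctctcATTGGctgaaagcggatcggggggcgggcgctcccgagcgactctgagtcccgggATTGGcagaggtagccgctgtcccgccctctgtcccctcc
Insig1: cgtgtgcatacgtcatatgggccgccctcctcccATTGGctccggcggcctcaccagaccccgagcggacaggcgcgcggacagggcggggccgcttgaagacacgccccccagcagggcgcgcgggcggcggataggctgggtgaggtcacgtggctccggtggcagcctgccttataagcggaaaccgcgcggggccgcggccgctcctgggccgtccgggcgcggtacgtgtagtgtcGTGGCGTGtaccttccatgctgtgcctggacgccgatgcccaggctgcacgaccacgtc
Cyp51: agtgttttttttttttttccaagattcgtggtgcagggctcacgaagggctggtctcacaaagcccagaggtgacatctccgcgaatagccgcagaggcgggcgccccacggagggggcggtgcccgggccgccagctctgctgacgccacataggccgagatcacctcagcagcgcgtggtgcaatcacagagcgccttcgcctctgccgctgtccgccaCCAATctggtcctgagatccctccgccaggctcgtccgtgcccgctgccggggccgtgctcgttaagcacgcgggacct
Srebf2: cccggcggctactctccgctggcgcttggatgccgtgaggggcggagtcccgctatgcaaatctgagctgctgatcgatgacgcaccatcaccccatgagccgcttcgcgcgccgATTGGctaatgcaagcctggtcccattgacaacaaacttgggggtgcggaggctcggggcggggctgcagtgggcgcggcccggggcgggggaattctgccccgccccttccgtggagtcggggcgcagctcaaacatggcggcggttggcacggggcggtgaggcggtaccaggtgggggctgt

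These windows lie at chr17:12960676-12960975 (minus strand) for Acat2, chr13:119690101-119690400 (plus strand) for Hmgcs1 and chr5:28071162-28071461 (plus strand) for Insig1. Those of Cyp51 and Srebf2 lie at chr5:4104648-4104947 (minus strand) and chr15:82147019-82147318 (plus strand). The core in Hmgcs1 began 136 bases before the start, and that in Insig1 began 9 bases before it on the opposite strand. Hmgcs1 also held 4 CCAAT boxes, at 237, 176 and 45 bases before the start and 11 after it. Cyp51 and Srebf2 held 1 CCAAT box each.

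The enzymes spanned a wide range of levels. On the scale of mean CPM per kilobase of exon, averaged over the 5 groups, Fdps was the highest with 422, but its exons overlap those of Gm43738 on the same strand, so its counts are uncertain. Msmo1 followed with 130.1, Hmgcs1 with 116 and Acat2 with 105. Lss, Tm7sf2 and Dhcr7 lay lowest among the enzymes, at 7.26, 5.97 and 3.05 CPM per kilobase. Length was the union of all annotated exons, and that of Lss, 10787 bases, was the longest of the members, which lowers its place. Tm7sf2 shares exonic sequence with Vps51 on its strand. Exons of Cyp51, Fdft1 and Ggps1 overlap genes on the opposite strand, and whether counting used strand is not given in the sources used here. The regulator Srebf2 stood at 37.8, Insig1 at 16.4, and Scap at 1.14 CPM per kilobase. The efflux transporters Abca1 and Abcg1 and the ubiquitin ligase gene Mylip were at 0.0563 CPM per kilobase or less and did not pass the filter on low counts, so 26 of the 29 members were tested.

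The mean level of the synthesis route was lowest in the libraries labelled shYAP and highest in clone2. Averaged over the 19 enzymes, log2 CPM centred on each gene's mean over the 5 groups was 0.124 ± 0.067 in clone1, 0.299 ± 0.120 in clone2 and 0.0809 ± 0.0552 in Scrambled (SD, n = 9, 9 and 3). The same score was -0.538 ± 0.0592 in the libraries labelled shYAP and 0.0347 ± 0.237 in shControl (SD, n = 3 and 10). The shYAP-labelled libraries, from -0.586 to -0.472, lay below every other library of the study. Those of clone2, from 0.142 to 0.46, overlapped clone1, which reached 0.231, and shControl, which reached 0.279. Of the 19 enzymes, 16 had their lowest group mean in them and 12 had their highest in clone2. shControl was the most spread group: its replicates 2, 3 and 4 scored -0.262, -0.345 and -0.286, and its other 7 libraries between 0.0941 and 0.279.

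**Figure D1:**
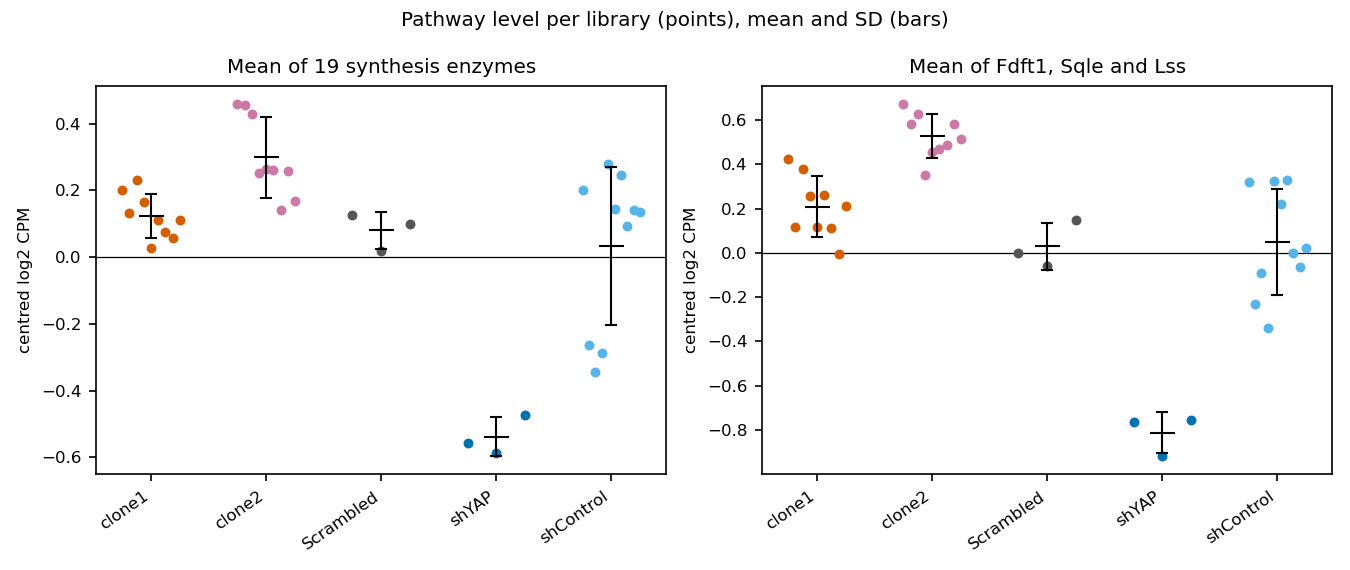
Mean centred log2 CPM of the 19 synthesis enzymes (left) and of Fdft1, Sqle and Lss (right) in each library, by group; points are libraries and bars the mean and SD. The 3 libraries labelled shYAP sit between -0.586 and -0.472 on the left, under all shControl libraries, of which 3 lie below -0.26.

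In the libraries labelled shYAP, 14 of the 26 tested members were lower than in shControl and 1, Srebf2, was higher, where 11.4% of all 11094 genes tested were called, 5.9% lower and 5.47% higher (edgeR quasi-likelihood test, adjusted over all genes tested, threshold 0.05). The lower members were 12 of the 19 enzymes, the SREBP feedback gene Insig1 and the sterol transport gene Stard4. The median log2 fold change was -0.62 over the enzymes and -0.59 over the tested members, against -0.05 over all genes. Libraries labelled shYAP lay wholly below shControl in 11 of the 26 members, which held for 5.26% of all genes, and wholly above it in Srebf2 alone, which held for 6.08%. In bulk RNA a smaller share of cells of a type and less RNA per cell cannot be told apart, and Yap1 itself was not lower in these libraries.

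Of the mevalonate pathway, 5 of 8 genes were lower in the shYAP-labelled libraries. Hmgcs1 (chromosome 13, 119690379 to 119708260, mm10), which makes HMG-CoA, had 238, 282 and 279 CPM in the libraries labelled shYAP, against 368.5 to 734.5 CPM with a median of 482 in shControl. Every shYAP-labelled library lay under every control, with a log2 fold change of -0.99 (SE 0.18, adjusted p = 0.00144). Acat2, the cytosolic thiolase that starts the route, had 136, 147 and 162 CPM against 154 to 339 CPM with a median of 296 (log2 fold change -0.86, SE 0.22, adjusted p = 0.0171). The groups overlapped in Acat2, since shControl replicates 3 and 4 stood at 158 and 154 CPM. Mvd, the mevalonate diphosphate decarboxylase, had 32.8, 34.8 and 26.5 CPM against 31.9 to 79.6 CPM with a median of 55.5 (log2 fold change -0.82, SE 0.22, adjusted p = 0.0197). Phosphomevalonate kinase Pmvk and isopentenyl diphosphate isomerase Idi1 were lower, with log2 fold changes of -0.59 and -0.56 (adjusted p = 0.0131 and 0.0291). Mvk (-0.18), the farnesyl diphosphate synthase gene Fdps (-0.63) and the geranylgeranyl diphosphate synthase gene Ggps1 (0.07) did not pass the test.

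All 3 genes that carry farnesyl diphosphate to lanosterol were lower in the libraries labelled shYAP. The lanosterol synthase gene Lss (chromosome 10, 76531588 to 76557138, mm10) had 33.98, 29.8 and 36.8 CPM against 52.2 to 106 CPM with a median of 77.6 in shControl. Its groups did not overlap, and the log2 fold change was -1.31 (SE 0.21, adjusted p = 0.000296), the largest of the 3. Squalene epoxidase, the product of Sqle (chromosome 15, 59315077 to 59331192, mm10), is a control point of the route; Sqle had 65.1, 53.5 and 58.7 CPM against 71.7 to 127 CPM with a median of 101 (log2 fold change -0.80, SE 0.18, adjusted p = 0.00583). Squalene synthase Fdft1 had 234, 236 and 245.5 CPM against 289.7 to 421 CPM with a median of 347 (log2 fold change -0.57, SE 0.13, adjusted p = 0.00862). Both genes were below every shControl library in each of the 3 libraries.

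Of the 8 genes after lanosterol, 4 were lower. Dhcr7, the reductase of the last step, had 8.14, 5.44 and 9.70 CPM in the libraries labelled shYAP against 13.3 to 25.03 CPM with a median of 22.01 in shControl (log2 fold change -1.39, SE 0.25, adjusted p = 0.00117). Cyp51, the lanosterol demethylase (chromosome 5, 4081145 to 4104746, mm10), had 126, 111 and 111 CPM against 168 to 333 CPM with a median of 253 (log2 fold change -1.10, SE 0.21, adjusted p = 0.00177). Msmo1, a methylsterol oxidase, had 545, 512 and 515 CPM against 599 to 1016 CPM with a median of 835 (log2 fold change -0.64, SE 0.15, adjusted p = 0.00758). None of these 3 genes had overlapping groups. The sterol dehydrogenase Nsdhl was lower (log2 fold change -0.62, adjusted p = 0.0308), while the desaturase Sc5d (-0.45), Tm7sf2 (-0.46), the isomerase Ebp (0.13) and Hsd17b7 (0.02) did not pass.

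Of the regulators, Insig1 was lower and Srebf2 higher. Insig1 (chromosome 5, 28071363 to 28078662, mm10) had 25.4, 20.8 and 24.3 CPM in the libraries labelled shYAP against 46.1 to 77.5 CPM with a median of 61.8 in shControl, and its log2 fold change of -1.42 was the largest of the 26 tested members (SE 0.20, adjusted p = 9.35e-05). Srebf2 (chromosome 15, 82147181 to 82205379, mm10) had 435, 407 and 366 CPM against 171 to 339.5 CPM with a median of 287.5 (log2 fold change 0.59, SE 0.19, adjusted p = 0.0467). Its 3 values lay above every control library, and those of Insig1 below every one. Insig2 (-0.07) and Scap (0.21) did not pass. Stard4, which moves cholesterol between membranes, had 29.4, 29.1 and 31.8 CPM against 40.6 to 89.3 CPM with a median of 63.6 (log2 fold change -1.13, SE 0.24, adjusted p = 0.0043). The esterification gene Soat1 had 91.2, 79.0 and 86.0 CPM against 87.0 to 183 CPM with a median of 126.5 and missed the threshold (log2 fold change -0.59, 95% interval -1.01 to -0.16, adjusted p = 0.0655), as did the HDL receptor gene Scarb1 (-0.34, interval -0.97 to 0.30).

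**Figure D2:**
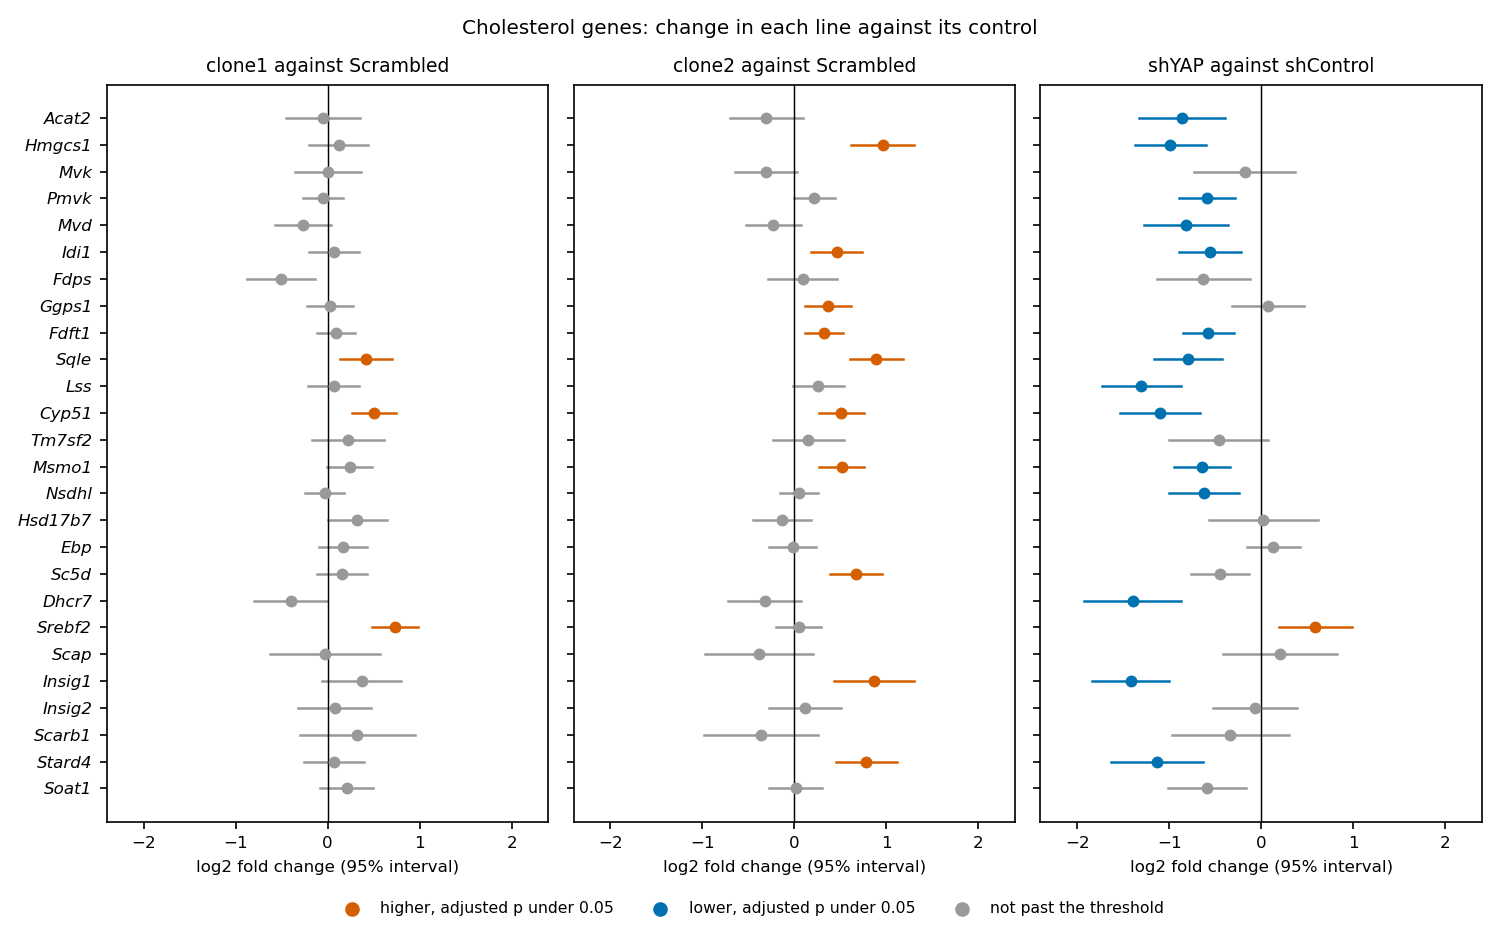
Log2 fold change with 95% interval of the 26 tested members in clone1 and clone2 against Scrambled and in the libraries labelled shYAP against shControl; genes run down the page in pathway order. In the right panel 14 genes lie left of 0 in blue and Srebf2 lies right of it, and in the middle panel 10 genes lie right of 0 in orange.

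The count of 15 rested on few libraries and was 8, 6 and 10 without shYAP replicate 1, 2 and 3. Calls over all genes fell as well, from 1261 of 11094 to 509 of 11569, 412 of 11563 and 515 of 11550. When blocks of libraries entered limma as a random effect, 7 members were called, all lower, and 298 of 11094 genes. These blocks are sets of consecutive replicates within a group that resembled one another, drawn after values had been seen. The labels do not give them. Library numbers break at 1 of their boundaries only, from 201016 for shControl replicate 4 to 201026 for replicate 5. The 3 libraries labelled shYAP were 1 such block. Against shControl replicates 8 to 10, whose library numbers adjoin theirs, 19 members were called, 18 of them lower. Calls over all genes rose too, to 2229 of 10157. Srebf2 did not pass without any 1 of the 3 shYAP-labelled libraries (adjusted p = 0.186, 0.165 and 0.116). The summed level of 16 absorptive colonocyte markers was 3214 to 3453 CPM in the libraries labelled shYAP and 2072 to 4452 CPM in shControl, with 1 marker and none at 0 in every library of the group. Of the 9 tested, 3 were higher and none lower in the libraries labelled shYAP, and of 10 epithelial markers 2 were lower and none higher, with summed levels of 3644 to 3834 CPM against 3644 to 4092 CPM in shControl. The sum of 4 hepatocyte genes was 1.99 to 3.59 CPM against 7.53 to 25.3 CPM, with 1 gene at 0 in each group. The part of these 3 lists in the changes was not tested.

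In the Degs1 knockout clones, the members that passed the test were higher than in Scrambled. With both clones set against Scrambled, 8 of the 26 tested members were higher and none lower, where 17.6% of 11514 genes were called, 8.39% higher and 9.21% lower. The 8 were the enzymes Hmgcs1, Sqle, Cyp51, Msmo1 and Sc5d and the genes Srebf2, Insig1 and Stard4. The median log2 fold change of the enzymes was 0.16, against 0.00 over all genes. In clone1, 3 members were higher and none lower (all genes: 12.7% called, 5.96% higher, 6.71% lower). In clone2, 10 were higher and none lower (all genes: 33.1% called, 16.5% higher, 16.6% lower). As totals out of 26, the counts of 3 and 10 lie near the shares of all genes called. Both contrasts share the 3 Scrambled libraries. All 18 knockout libraries lay above all 3 Scrambled libraries in Sqle, Cyp51 and Msmo1, which held for 2.02% of genes, and below them in no member, where 2.19% of genes did. The summed level of 10 epithelial markers was 5621 to 6668 CPM in clone1, 2800 to 3582 CPM in clone2 and 5108 to 5354 CPM in Scrambled. The summed absorptive colonocyte markers were 3417 to 5657 CPM in clone1, 2130 to 3695 CPM in clone2 and 3089 to 3231 CPM in Scrambled, with none, none and 1 of the 16 at 0 throughout a group. Of the 12 tested, 8 were higher and 1 lower in clone1, and 1 was higher and 8 lower in clone2. The part of either list in the cholesterol genes' changes was not tested.

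Sqle and Cyp51 were higher in each clone. Sqle had 100 to 135 CPM with a median of 120.5 in clone1, 121 to 213 CPM with a median of 161 in clone2, and 81.1, 88.0 and 98.8 CPM in Scrambled. Every knockout library lay above every Scrambled library, with log2 fold changes of 0.42 in clone1 (SE 0.14, adjusted p = 0.0383) and 0.89 in clone2 (SE 0.14, adjusted p = 5.87e-06). The call in clone1 was lost without Scrambled replicate 1, 2 or 3 (adjusted p = 0.217, 0.141 and 0.0573). Cyp51 had 202 to 289 CPM with a median of 263 in clone1, 222 to 305 CPM with a median of 240.2 in clone2, and 180.4, 177 and 172 CPM in Scrambled. It too separated the groups, with log2 fold changes of 0.50 and 0.51 in clone1 and clone2 (adjusted p = 0.00366 and 0.000976). Against shControl, whose Cyp51 ranged from 168 to 333 CPM, the values were 0.01 and 0.04 (adjusted p = 0.959 and 0.789).

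Hmgcs1, Insig1 and Stard4 passed the test in clone2 and not in clone1. Hmgcs1 had 690.1 to 1253 CPM with a median of 851 in clone2, 406.5 to 627 CPM with a median of 480.2 in clone1, and 455, 479.5 and 454 CPM in Scrambled. All clone2 libraries were above all others of the knockout experiment, with a log2 fold change against Scrambled of 0.96 (SE 0.17, adjusted p = 5.18e-05) and of 0.12 in clone1 (SE 0.16, adjusted p = 0.701). Insig1 had 64.1 to 89.4 CPM with a median of 73.6 in clone2, 35.5 to 90.6 CPM with a median of 43.3 in clone1, and 36.5, 44.3 and 40.2 CPM in Scrambled. Its log2 fold change was 0.87 in clone2 (SE 0.21, adjusted p = 0.00229) and 0.37 in clone1 (SE 0.21, adjusted p = 0.282). Against shControl, with 46.1 to 77.5 CPM, the clone2 value was 0.25 (adjusted p = 0.127). Stard4 had 91.4 to 166.5 CPM with a median of 129 in clone2, 54.9 to 94.8 CPM with a median of 72.8 in clone1, and 56.4, 78.3 and 77.5 CPM in Scrambled (log2 fold change in clone2 0.78, SE 0.17, adjusted p = 0.000321). Stard4 lies on chromosome 18, whose 291 tested genes had a median log2 fold change of 0.47 in clone2 and 0.06 in clone1, and the part of this shift was not tested.

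The other members higher in clone2 were Idi1, Ggps1, Fdft1, Msmo1 and Sc5d, with log2 fold changes from 0.32 for Fdft1 to 0.67 for Sc5d, the lathosterol desaturase. Sc5d had 176 to 294 CPM with a median of 270.1 in clone2 and 159, 139.5 and 159 CPM in Scrambled, without overlap (SE 0.14, adjusted p = 0.00024). Msmo1 had 774 to 1331 CPM with a median of 1092 in clone2 and 747, 699.9 and 754 CPM in Scrambled (log2 fold change 0.52, SE 0.12, adjusted p = 0.00105). Libraries of clone2 lay wholly above Scrambled in 8 members, which held for 12.7% of all genes. They lay wholly below it in none, which held for 12% of all genes. Ggps1 was no longer called without Scrambled replicate 2 or 3 (adjusted p = 0.0994 and 0.0737), nor Fdft1 without replicate 2 (0.0777). Mvk, Mvd, Acat2 and Dhcr7 had log2 fold changes from -0.32 to -0.23 in clone2 and did not pass.

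Srebf2 was higher in clone1 and not in clone2. It had 229.5 to 360.4 CPM with a median of 331.5 in clone1, 175.5 to 226 CPM with a median of 196.5 in clone2, and 207, 192 and 158 CPM in Scrambled. Clone1 lay above Scrambled in all 9 libraries, with a log2 fold change of 0.73 (SE 0.13, adjusted p = 6.84e-05), against 0.05 in clone2 (SE 0.12, adjusted p = 0.799). Against shControl, which itself ran from 171 to 339.5 CPM, the values were 0.21 in clone1 (adjusted p = 0.183) and -0.45 in clone2 (adjusted p = 0.00103). In clone1 all 9 libraries were above Scrambled in 4 members, Sqle, Cyp51, Msmo1 and Srebf2, where 4.95% of genes were, and below it in 1, Fdps, where 5.8% were. Fdps had 1033 to 1778 CPM with a median of 1516 in clone1 and 2386, 2167 and 1902 CPM in Scrambled (log2 fold change -0.51, 95% interval -0.87 to -0.14, adjusted p = 0.0624).

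**Figure D3:**
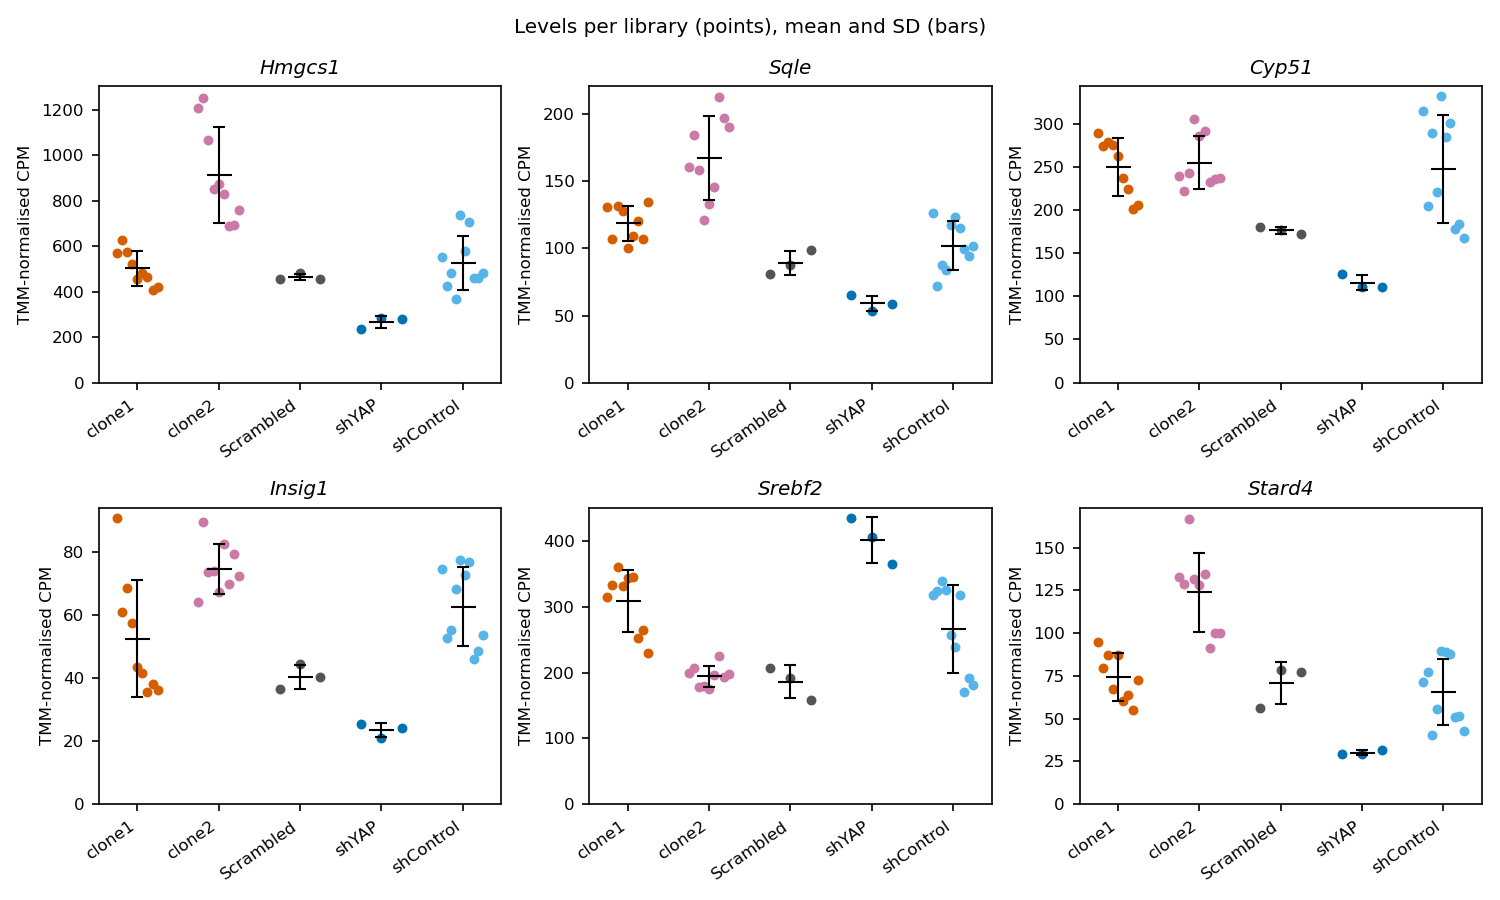
TMM-normalised CPM of 6 members in each library, by group; points are libraries and bars the mean and SD. Clone2 stands above the other groups in Hmgcs1 and Stard4 on average, Srebf2 is highest in the libraries labelled shYAP with 365.7 to 435.3 CPM, and those libraries are lowest in the other 5 genes.

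The 8 calls over both clones fell to 3, 3 and 2 without Scrambled replicate 1, 2 and 3, with Sqle and Cyp51 called each time. Calls over all genes fell as well, from 2027 of 11514 to 1254 of 11883, 1208 of 11816 and 1374 of 11874. With the same blocks of libraries as a random effect in limma, 3 members and 908 of 11514 genes were called. The values without 1 control library stayed above 0 in all 8 genes, from 0.28 for Srebf2 and Stard4. Sqle was at 0.65 (SE 0.13, adjusted p = 0.000432) and Cyp51 at 0.51 (SE 0.11, adjusted p = 0.00129) over both clones with every library in the fit.

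Set against each other, with 9 libraries a side, the clones differed in 15 of 26 tested members, not far above the share over all genes. In clone2, 11 members were higher and 4 lower than in clone1, where 49.1% of all genes were called, 23.6% higher and 25.5% lower. The enzymes higher in clone2 were Hmgcs1 (0.84), Fdps (0.60), Sc5d (0.51), Sqle (0.47), Idi1 (0.39), Ggps1 (0.34), Msmo1 (0.28), Pmvk (0.27) and Fdft1 (0.23), on the log2 scale. Stard4 (0.71, adjusted p = 2.67e-06) and Insig1 (0.50, adjusted p = 0.00596) were higher too. Lower in clone2 were Srebf2 (-0.69, SE 0.09, adjusted p = 2.01e-08), Scarb1 (-0.69, SE 0.22, adjusted p = 0.00981), the sterol reductase gene Hsd17b7 (-0.46, adjusted p = 0.000759) and the mevalonate kinase gene Mvk (-0.31, adjusted p = 0.034). Scarb1 had 5.07 to 11.6 CPM with a median of 6.78 in clone2 and 0 to 14.9 CPM with a median of 12.8 in clone1. Its 0 came from clone1 replicate 2, where no count among 883253 allows up to 3.40 CPM.

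Groups overlapped in most of these genes. Clone2 lay wholly above clone1 in 2 of 26 members, Hmgcs1 and Ggps1, where 7.28% of genes did. It lay wholly below clone1 in Srebf2 alone, where 4.46% did. Both counts lie near these shares. Hsd17b7 had 31.1 to 56.2 CPM with a median of 37.8 in clone2 and 42 to 69.6 CPM with a median of 51.3 in clone1. Fdps had 1519 to 3139 CPM with a median of 2364 in clone2 and 1033 to 1778 CPM with a median of 1516 in clone1, with the 2 lowest clone2 values in replicates 1 and 2. For Cyp51 the log2 difference was 0.01 (95% interval -0.16 to 0.17, adjusted p = 0.951).

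Within clone2 the members did not vary together. Replicates 7 to 9 had more Sqle, 190.8 to 213 CPM, than replicates 1 to 6, with 121 to 185 CPM. They had less of other enzymes: Idi1 was at 307 to 357 CPM in replicates 7 to 9 and 441 to 563 CPM in replicates 1 to 6, Sc5d at 176 to 193 CPM and 268 to 294 CPM, and Hmgcs1 at 690.1 to 759.7 CPM and 827 to 1253 CPM. With only replicates 7 to 9 of each clone, the Idi1 value in clone2 against Scrambled was 0.06 (adjusted p = 0.614) and that of Sqle kept its call. In clone1, replicates 7 to 9 had less Srebf2, 229.5 to 264 CPM, than replicates 1 to 6, with 316 to 360.4 CPM. The same was seen in shControl, where replicates 8 to 10 had 171 to 191 CPM of Srebf2 and replicates 1 to 4 had 318 to 339.5 CPM. These sets of replicates were chosen after their values had been seen, and the labels name no batch for them.

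**Figure D4:**
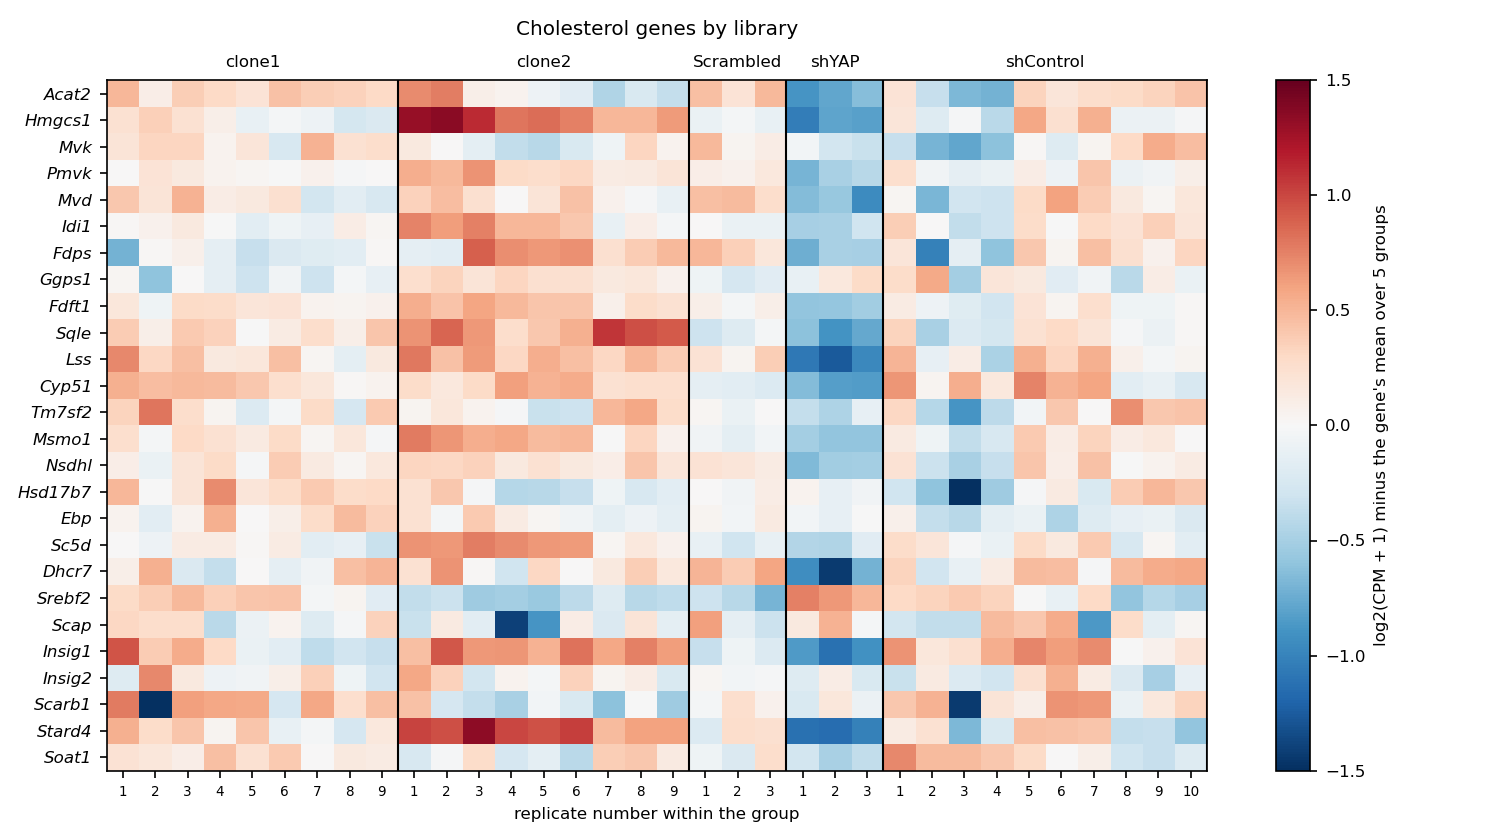
Log2(CPM + 1) of the 26 tested members in each library, minus the gene's mean over the 5 groups; columns are libraries by group and replicate number, rows are genes in pathway order, red is higher and blue lower. The columns of the libraries labelled shYAP are blue in most enzyme rows and red in Srebf2, and clone2 replicates 7 to 9 are darker red in Sqle and paler in Idi1 and Sc5d than replicates 1 to 6.

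Scrambled and shControl, the controls of the 2 experiments, did not differ in any member past the threshold, where 2.95% of 11960 genes did, 1.76% higher and 1.19% lower (edgeR quasi-likelihood test). At an unadjusted p under 0.05, 3 members were lower in Scrambled, Insig1 (-0.63, 95% interval -1.03 to -0.23), Srebf2 (-0.52, interval -0.85 to -0.19) and Cyp51 (-0.49, interval -0.81 to -0.17). The Wald test of DESeq2 called 2 of them, Insig1 and Srebf2, with adjusted p = 0.0442 and 0.0441. The median over the enzymes was 0.05. Insig1 had 36.5, 44.3 and 40.2 CPM in Scrambled and 46.1 to 77.5 CPM in shControl, without overlap, which held in this direction for 1.69% of all genes. No member lay wholly above shControl, where 2.61% of genes did.

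For much of the route the change differed between the 2 experiments. The change in both clones against Scrambled minus the change in the libraries labelled shYAP against shControl was above 0 in 14 of 26 members past the threshold and below 0 in none, where 18.8% of genes were called and 9.84% were above 0. It was 2.04 on the log2 scale for Insig1 (SE 0.29, adjusted p = 1.22e-06), 1.61 for Cyp51 (SE 0.23, adjusted p = 1.05e-06), 1.56 for Stard4 (SE 0.29, adjusted p = 0.000105) and 1.53 for Hmgcs1 (SE 0.24, adjusted p = 1.29e-05). All 3 squalene and lanosterol genes were included, with 1.47 for Lss, 1.45 for Sqle and 0.79 for Fdft1. Later enzymes past the threshold ranged from 0.64 for Nsdhl to 1.03 for Dhcr7, besides Cyp51, and 3 of the 8 later enzymes did not pass. For Lss, Dhcr7, Nsdhl and Pmvk the knockout change alone had not passed, with 0.16, -0.36, 0.01 and 0.08, against -1.31, -1.39, -0.62 and -0.59 in the libraries labelled shYAP. Srebf2 was higher over both clones (0.39) and in the libraries labelled shYAP (0.59), and its difference of -0.20 did not pass (95% interval -0.63 to 0.24). Any gap between the 2 controls enters the difference between the experiments. Scrambled lay under shControl in Insig1 (-0.63) and Cyp51 (-0.49), which raises their values, while 14 of 26 members were above 0 in that contrast. Yap1 had not been lower in the libraries labelled shYAP, so the direction is that of these libraries. Degs1 itself was higher in them, and its difference between the experiments was -3.33 (edgeR quasi-likelihood test, SE 0.49, adjusted p = 2.32e-06).

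Several members, Scap, Insig2, Ebp and Soat1 among them, did not pass the test in clone1 or clone2 against Scrambled or in the libraries labelled shYAP against shControl. Ebp did pass in clone2 when shControl replaced Scrambled (0.24, adjusted p = 0.0313). Scap, which escorts SREBP2, had 9.09, 12.07 and 7.94 CPM in the libraries labelled shYAP and 4.01 to 12.4 CPM in shControl, and its log2 fold change of 0.21 had a 95% interval from -0.41 to 0.83. Against Scrambled its interval ran from -0.62 to 0.57 in clone1 and from -0.98 to 0.20 in clone2. Insig2, the other INSIG gene, had 16.51, 20.58 and 16.1 CPM in the libraries labelled shYAP and 13.2 to 28.0 CPM in shControl, with an interval from -0.52 to 0.39. The Insig2 estimates were 0.08 in clone1 (interval -0.32 to 0.47) and 0.12 in clone2 (interval -0.27 to 0.51). The sterol isomerase gene Ebp had intervals from -0.09 to 0.43 in clone1, from -0.28 to 0.24 in clone2 and from -0.16 to 0.42 in the libraries labelled shYAP. Soat1 had 111 to 152 CPM with a median of 125 in clone1, 83.6 to 147 CPM with a median of 110 in clone2, and 106, 95.3 and 134 CPM in Scrambled, with all groups overlapping. Between libraries of 1 group, the median coefficient of variation over the members was 15% in clone1, 18.7% in clone2 and 7.7% in Scrambled. It was 9.6% in the libraries labelled shYAP and 23.5% in shControl.

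The transporters that export cholesterol gave few counts in any group. Abca1, which loads cholesterol onto apolipoprotein A-I, had 0 counts in all 9 clone1 libraries, which allows up to 0.0857 CPM over the 35009779 counts of the group. It had 1 to 11 counts in each of the 9 clone2 libraries, 39 in all, and 1, 2 and 4 counts in Scrambled. The libraries labelled shYAP held 2 counts in all and the shControl libraries 15. Abcg1, which exports cholesterol to HDL, had 47 counts in 6 of 9 clone2 libraries, with at most 21, and 0 in clone1, Scrambled and the libraries labelled shYAP. In Scrambled, 0 counts allow up to 0.200 CPM of Abcg1, and in the shYAP-labelled libraries up to 0.231 CPM. shControl held 11 counts in 6 of its 10 libraries. Mylip, whose product marks lipoprotein receptors for degradation, had 37 counts over all 34 libraries. Limits and counts cover counting error only, and no test was made of these 3 genes.

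**Figure D5:**
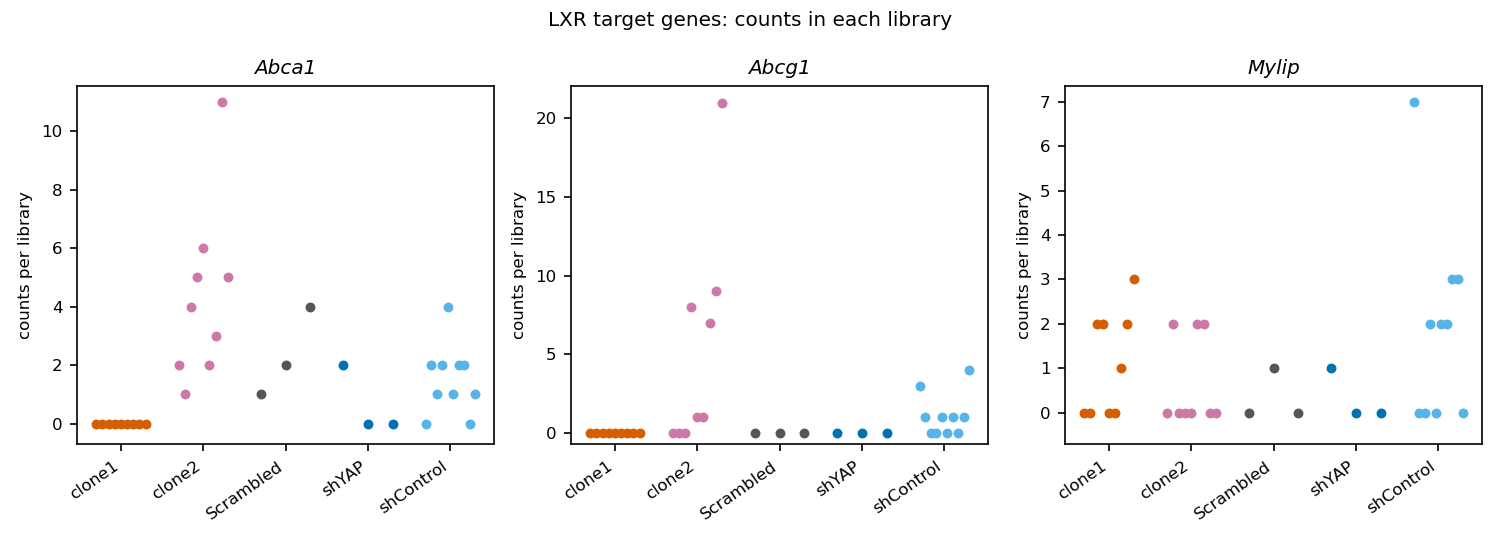
Counts of Abca1, Abcg1 and Mylip in each library, by group; each point is a library. Abca1 is at 0 in all 9 clone1 libraries and between 1 and 11 in the clone2 libraries, and Abcg1 reaches 21 counts in clone2.

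A list of 47 other genes of sterol supply, transport and sensing, of which 36 were tested, was set beside the members. In the libraries labelled shYAP 8 of the 36 were lower and none higher than in shControl, where 5.9% of all genes were lower and 5.47% higher. They included Acss2, which makes acetyl-CoA from acetate, with 5.33 ± 0.76 CPM against 33.04 ± 14.8 CPM (SD, n = 3 and 10; log2 fold change -2.63, adjusted p = 0.000714). The lipoprotein receptor genes Vldlr (-1.44) and Lrp8 (-1.04) and the citrate lyase gene Acly (-0.59) were also lower. In clone2, 5 of the 36 were higher and 8 lower than in Scrambled, where 16.5% of all genes were higher and 16.6% lower. In clone1, 3 were higher and 2 lower, where 5.96% of all genes were higher and 6.71% lower. Both pairs of counts lie near these shares. Acss2 was higher in clone2 (0.96, adjusted p = 7.91e-05) and in clone1 (0.55, adjusted p = 0.0397). Lbr, a nuclear envelope protein with sterol reductase activity, was lower in clone2 (-1.08) and in clone1 (-0.64). In clone1, Lbr had 113 to 169 CPM in replicates 1 to 6 and 245 to 260 CPM in replicates 7 to 9. Scrambled had 255 to 322.5 CPM of Lbr. Between the 2 experiments the difference for Acss2 was 3.39 (SE 0.43, adjusted p = 4.01e-07). Over the 36 genes the median log2 fold change was -0.22 in the libraries labelled shYAP, -0.07 in clone2 and -0.0013 in clone1.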

How the data were processed

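RNA was measured in 34 directional poly(A) libraries from mouse organoids, as the labels' protocols state. The authors deposited expected counts per gene, whole numbers made with Salmon 1.3.0 on build mm10, per the submitters' processing notes. How transcripts were summed and whether strand was used in counting are not given in the sources used here. Cyp51, Fdft1 and Ggps1 overlap exons of genes on the opposite strand.

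Groups followed the labels. Genes were kept by filterByExpr (minimum count 10, minimum total 15), scaled by TMM, and fitted with edgeR 4.0.16 (R 4.3.3). Its quasi-likelihood test, robust and two-sided, was adjusted by Benjamini and Hochberg's method over all genes tested, with a threshold of 0.05. The 21 knockout libraries shared 1 fit and the 13 hairpin libraries another; contrasts across them used 1 fit of all 34. Scores used a prior count of 2. Intervals are 95%. Alternatives used limma 3.58.1, DESeq2 1.42.0 and those named in the closing section. Gene positions came from GENCODE M21 and promoter windows from RefSeq (GRCm38.p6).

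The members, lists, blocks of libraries and alternatives were chosen with earlier results of these data known. By rule, the members given library by library were up to 3 past the threshold with the largest change per comparison and role, plus Hmgcs1, Sqle, Insig1, Srebf2, Abca1, Abcg1, Soat1 and Scarb1; some of those are given by range or fold change alone. A few genes of the wider pathway are not reported here by name. Replicate numbers shared by groups did not mark pairs (correlations of deviations from -0.0688 to 0.0764). Only the fits of the knockout and hairpin experiments were run on simulated counts with known changes, with independent libraries and the same spread for all genes. Contrasts across the experiments, scores, flags and alternatives were not simulated.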

Additional observations from a re-analysis of the deposited data

Results flagged for a closer look

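Scarb1 stood apart in 2 libraries, with 0 CPM in clone1 replicate 2 against a median of 12.8 CPM in the other 8, and with 2.43 CPM in shControl replicate 3 against 10.7 CPM in the other 9. These are the shallowest libraries of their groups. They were 2 of 78 groups of libraries looked at, and chance flags about 1 in 20.

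By the direct contrast of clone2 and clone1, in which Scrambled cancels, 15 of 26 tested members differed. This is not far above the share over all genes, 49.1% (edgeR quasi-likelihood test, adjusted over all genes tested). The 10 given here also passed the test in clone1 or clone2 against Scrambled. The difference, clone2 minus clone1 in log2 units, was 0.84 for Hmgcs1, 0.71 for Stard4, 0.51 for Sc5d, 0.50 for Insig1 and 0.47 for Sqle. It was 0.39 for Idi1, 0.34 for Ggps1, 0.28 for Msmo1, 0.23 for Fdft1 and -0.69 for Srebf2. Adjusted p ran from 2.01e-08 for Srebf2 to 0.00804 for Fdft1.

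The knockout effect differed from the effect in the libraries labelled shYAP in 14 of 26 tested members by the test of the difference itself. Over all genes 18.8% were called, 9.84% above 0. That difference was 2.04 for Insig1, 1.61 for Cyp51, 1.56 for Stard4, 1.53 for Hmgcs1, 1.47 for Lss, 1.45 for Sqle and 1.03 for Dhcr7. It was 1.02 for Msmo1, 0.86 for Sc5d, 0.83 for Idi1, 0.79 for Fdft1, 0.70 for Soat1, 0.67 for Pmvk and 0.64 for Nsdhl. Adjusted p ran from 1.05e-06 for Cyp51 to 0.0338 for Soat1.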

How the results depend on the processing

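Over 34 libraries with 3 in Scrambled and 3 labelled shYAP, counts of called members moved with the libraries and the threshold. Members called over both clones were 8 (2027 of 11514 genes). They were 3 with blocks of libraries as a random effect (908 genes) and 2 at a threshold of 0.01 (1184 genes). With 1 of the Scrambled libraries or clone1 replicate 2 left out, they were 2 to 7, and no other library was left out singly. In the libraries labelled shYAP they were 15 (1261 of 11094 genes). They were 7 with blocks of libraries as a random effect (298 genes) and 9 at a threshold of 0.01 (453 genes). With 1 of the shYAP-labelled libraries or shControl replicate 3 left out, they were 6 to 15. In clone1 they were 3 (1459 of 11514 genes). They were 5 with clone replicates 1 to 6 (2045 of 11102 genes) and 6 with clone replicates 7 to 9 (1759 of 10861 genes). With shControl in place of Scrambled, 1 was called in clone1 (2503 of 11960 genes). Between Scrambled and shControl there were none (353 of 11960 genes), and 2 by the DESeq2 Wald test (504 genes). Counts for clone2, for clone2 against clone1 and for the difference between experiments stayed within 1.5 times under the alternatives run.

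Replicate numbers did not pair libraries. With the replicate number as a block the counts were 9 over both clones, 5 in clone1, 12 in clone2 and 17 between the clones. Calls over 11514 genes in these contrasts were 1603, 1350, 2957 and 5555. In the libraries labelled shYAP 12 members were called (1730 of 11094 genes). Between Scrambled and shControl there were 3, all lower (453 of 11960 genes), and between the experiments 12 (2142 of 11960 genes).

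Of 2744 values for single members or the enzyme score under an alternative, 2547 counted as unchanged. Of the others, 131 were no longer past the threshold, 60 became so, and 6 reversed with the main or the alternative value past it. A change of direction with neither value past the threshold counted as unchanged, as did a score that moved by less than its SD. With shControl in place of Scrambled, Srebf2 was at -0.12 over both clones (adjusted p = 0.393) and -0.452 in clone2 (0.00103), Insig1 at -0.005 over both clones (0.981) and Ebp at 0.24 in clone2 (0.0313). With clone replicates 7 to 9 alone, Idi1 in clone2 against clone1 was at -0.005 (0.969). With shControl replicates 8 to 10 alone, Hsd17b7 in the libraries labelled shYAP was at -0.485 (0.0087). The cause was not tested. Low counts limit Abca1, Abcg1 and Mylip.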
